A study of Mus musculus with 19 samples.

Results

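The difference between the smoke effect and the nicotine vapour effect was measured for each gene as the log2 change of smoke over air minus the log2 change of Nic over Room-air, in RNA of cerebral microvessels from male C57BL/6 mice bought at 7 weeks of age. The comparison used 15 of the 19 libraries in the series, all those whose titles name these 4 groups: smoke (exposure to smoke, its source not named, 4 libraries), air (4), Nic (e-cigarette vapour with nicotine, 3) and Room-air (4). Both control groups are described as exposed to room air, and each was matched to its exposure by its title alone. The labels name no genetic change for any group. The labels give no dose, length of exposure, litter, batch or time of collection. Nothing in them says whether libraries of a group came from separate mice, so the p-values below measure the spread between these libraries, which may be technical in part. A shift shared by an exposure and its own controls cancels in this difference.

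Brain microvessels are lined by endothelial cells that form the blood-brain barrier through tight junctions, selective transporters and low vesicle traffic, and Wnt signals from the surrounding tissue keep that state. Endothelial cells, pericytes and astrocytes also carry a molecular clock. In it the Clock and Arntl proteins bind E-box sequences and switch on the Per and Cry genes, Dbp and Nr1d1. The Per and Cry proteins then inhibit Clock and Arntl, and the Nr1d1 protein represses Arntl through ROR elements. Cigarette smoke carries nicotine together with combustion products, whereas e-cigarette vapour carries nicotine in a heated carrier liquid.

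The libraries held 7939180 to 12607538 counts in genes in smoke, 9761373 to 13490373 in air, 21800157 to 28364198 in Nic and 25266790 to 30185056 in Room-air. Endothelial markers, as a summed share of counts over 20 genes, were 0.320 to 0.428% in smoke, 0.183 to 0.320% in air, 0.371 to 0.680% in Nic and 0.363 to 0.509% in Room-air, and none of the 20 was at 0 in every library. Markers of other brain cells were present in every group. Neuron markers made up 0.749 to 1.18% of counts in smoke and 0.987 to 1.27% in air, against 0.855 to 0.896% in Nic and 0.816 to 0.941% in Room-air. Oligodendrocyte markers made up 1.71 to 2.48% in smoke, 2.33 to 3.25% in air, 0.963 to 1.57% in Nic and 1.32 to 1.58% in Room-air. Fewer cells of a type and less RNA per cell cannot be told apart in such bulk samples.

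A measure of read assignment moved with the difference, and whether it is technical or a trait of the samples was not tested. The share of reads assigned to no gene was 28.9 to 33.2% in smoke and 33.6 to 37.5% in air, but 33.0 to 38.4% in Nic and 28.7 to 33.4% in Room-air. It was lower in all 4 smoke libraries than in every air library, and higher in Nic 1 and Nic 2 than in every Room-air library, with Nic 3 inside the Room-air range. It therefore ran in opposite directions in the 2 arms, as most of the called genes below did, and its part in the results was not tested beyond the covariate fit given with the counts. Choroid plexus and ependymal markers also differed between the arms. They made up 0.178 to 2.69% of counts in smoke and 0.373 to 2.47% in air, which overlapped, against 0.212 to 0.716% in Nic and 1.77 to 2.50% in Room-air, which did not.

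**Figure D1:**
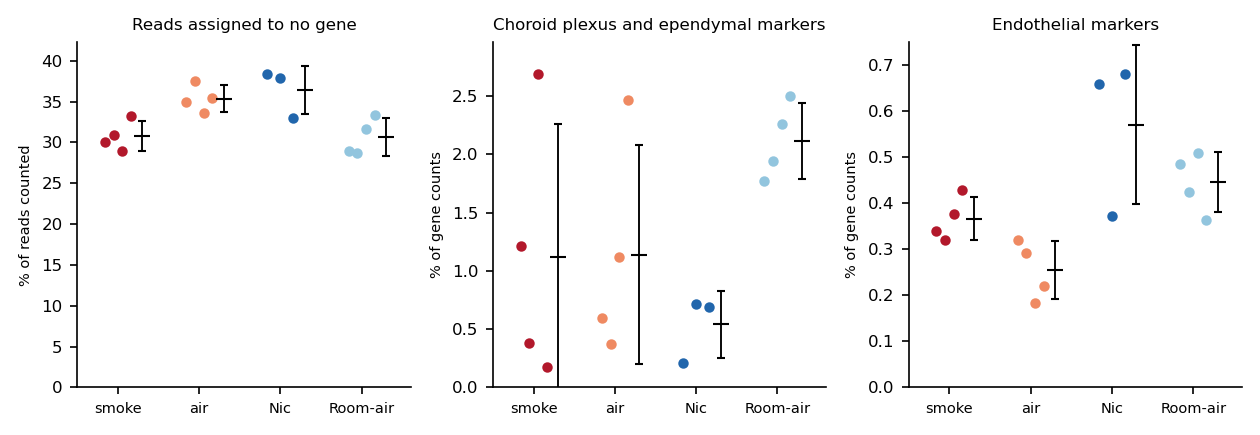
Share of reads assigned to no gene (percent of reads counted), and summed choroid plexus and ependymal markers and endothelial markers (percent of gene counts), in the smoke, air, Nic and Room-air libraries. Points are libraries and bars the mean ± SD, with the lower end of the smoke choroid bar cut off at 0; the share assigned to no gene was low in smoke against air and high in Nic against Room-air, except in Nic 3.

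The smoke effect and the nicotine vapour effect differed for 351 of 16209 genes tested, or 2.17% (edgeR quasi-likelihood test, Benjamini-Hochberg adjusted p under 0.05). The difference was positive, written below as higher, for 139 genes (0.858%) and negative, written as lower, for 212 genes (1.31%). Of the higher genes, 134 had a positive smoke effect and a negative nicotine vapour effect. All 212 lower genes had a negative smoke effect and a positive nicotine vapour effect. A test of the difference favours genes with opposite signs, so these counts describe the called genes and support nothing further. Over all 16209 genes the 2 effects had a Pearson r of −0.15 and a Spearman rho of −0.14, across genes that are not independent replicates.

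The median size of the 351 called differences was 0.82 on the log2 scale, the smallest was 0.47, and 80 exceeded 2-fold. The smoke and air libraries did not overlap in 235 of the 351 genes, the Nic and Room-air libraries did not overlap in 193, and neither pair overlapped in 94. Over all 16209 genes tested the same held for 1869 (11.5%), 2787 (17.2%) and 224 (1.38%), and the 351 were chosen by a test on these libraries, so the counts are a description. Within each arm alone, the smoke effect was called for 206 genes (1.27%), 133 of them higher (0.821%) and 73 lower (0.450%), or 140 higher and 121 lower with upper-quartile scaling, and 73 of the 206 were also among the 351. The nicotine vapour effect was called for 0 genes (0.00%) in the same edgeR fit, with 3382 genes at an unadjusted p under 0.05 and a lowest adjusted p of 0.0535. For that effect DESeq2 called 869 genes and limma-voom 318.

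**Figure D2:**
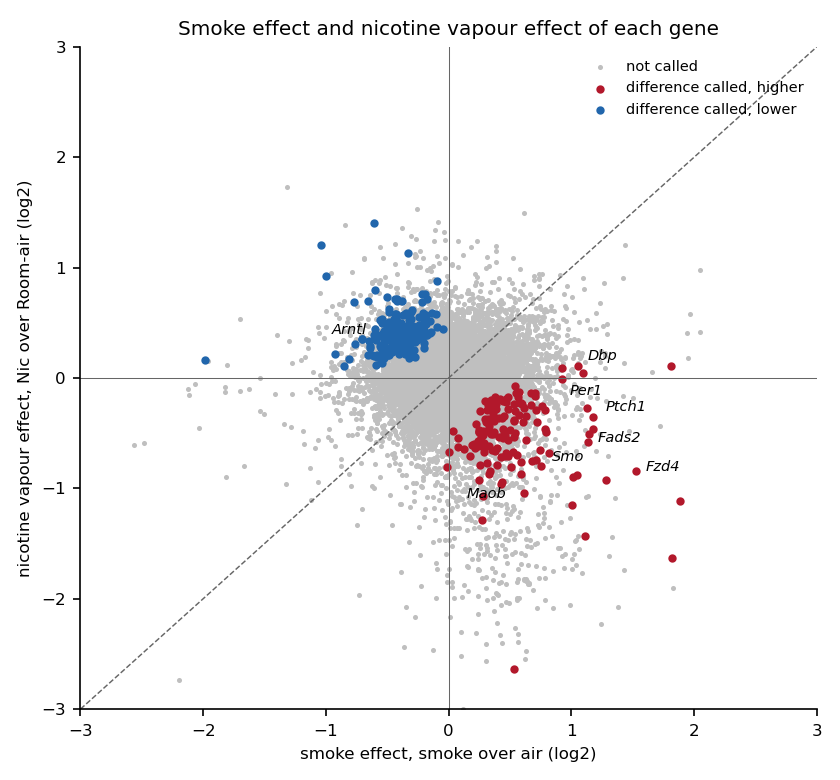
Nicotine vapour effect (Nic over Room-air, log2, vertical) against smoke effect (smoke over air, log2, horizontal) for the tested genes within 3 log2 units on each axis; 6 genes, 1 of them called, lie outside. The 139 genes with a called higher difference lie below the dashed line of equal effects and the 212 called lower above it, nearly all in the quadrants of opposite sign.

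The calls stood close to the threshold. The lowest adjusted p was 0.0245, and a further 1225 genes lay between 0.05 and 0.10. When each library was left out in turn the count ran from 0 to 1930 (edgeR). It was 0 without air 1, without Nic 1, without Nic 2 or without Room-air 2, where 3340, 2739, 2875 and 3356 genes had an unadjusted p under 0.05. It was 4 without air 2 and 12 without air 3. Without smoke 1, smoke 2 and smoke 3 it was 75, 97 and 60, and without Room-air 1, Room-air 3 and Room-air 4 it was 46, 88 and 223. The count was 317 without air 4, 680 without smoke 4 and 1930 without Nic 3, the last of which held all 351. All 351 genes kept their direction in each of the 15 fits, with unadjusted p of at most 0.00696, and none had an adjusted p under 0.05 in all of them. With the share of reads assigned to no gene as a covariate, chosen after the data were seen, 0 genes were called by edgeR and 471 had an unadjusted p under 0.05. In that fit 349 of the 351 kept their sign, the median difference was 0.52 times as large, and the median standard error over all genes was 1.68 times as large. With the choroid plexus and ependymal markers as a covariate 0 genes were called, 3148 had an unadjusted p under 0.05 and the lowest adjusted p was 0.0559.

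**Figure D3:**
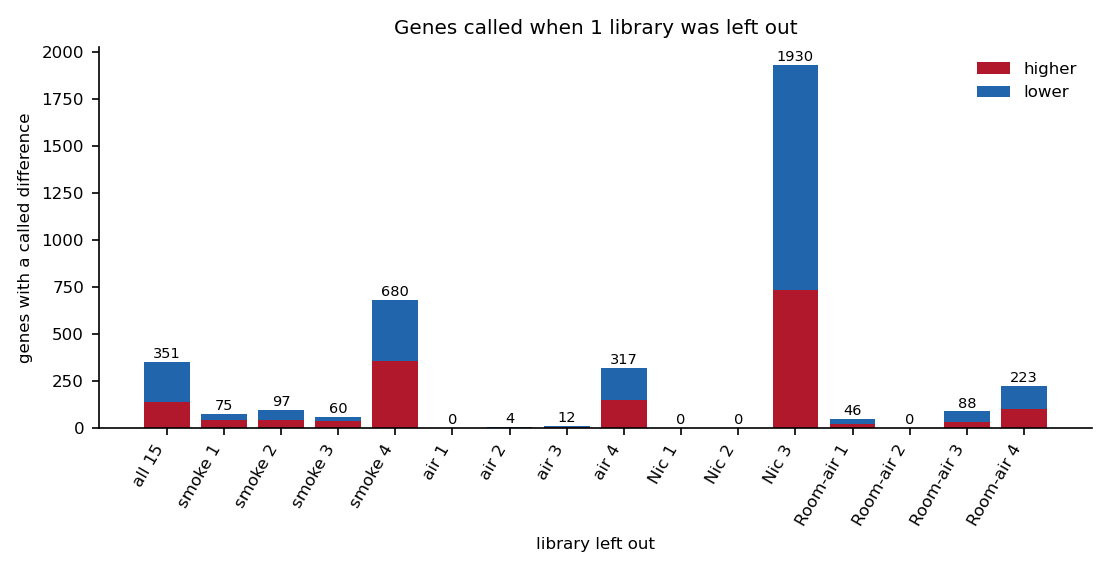
Number of genes whose smoke effect and nicotine vapour effect differed at adjusted p under 0.05 (bars, higher and lower genes stacked) with all 15 libraries and with each library left out. The count was 351 with all libraries, 0 without air 1, Nic 1, Nic 2 or Room-air 2, and 1930 without Nic 3.

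Because no gene passed in all 15 of those fits, the genes named below are members of 42 pathway and marker lists, a short list of barrier and exposure genes, and some further genes and families. Those chosen after their values were seen are the 15 higher and 15 lower called genes with the smallest largest p over the 15 fits, and 14 gene families. The gene lists were also written with earlier results of these data known, so the shares called in them are a description. Levels are given as CPM, which are counts scaled to an equal library total with TMM factors, and each ± is a standard error unless given as SD.

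Clock genes were the list with the most called members. Of 20 clock genes tested, 2 were called higher (Dbp and Per1) and 1 lower (Arntl), or 15% against 2.17% of all genes. The median difference of the 20 was 0.15, from a median smoke effect of 0.30 and a median nicotine vapour effect of 0.07, against −0.00 for all genes tested. In the smoke effect alone 7 of the 20 were called higher (Dbp, Per1, Per2, Per3, Nr1d1, Ciart and Tef), against 0.821% of all genes, and 1 was called lower (Arntl), against 0.450%. None of the 20 was called in the nicotine vapour effect, where 0 of all 16209 genes tested were called, so this says nothing particular to the clock genes.

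The sequences that clock proteins read were searched in RefSeq promoter windows (build GRCm38.p6), from 250 bases before to 50 bases after each annotated start, because the clock genes called in the smoke arm include activators and repressors of that loop. The E-box CACGTG, which is its own reverse complement, occurred in 7.15% of 32851 windows. It occurred in 1 of 2 windows of Per1, 3 times in the window of Ciart, a repressor of Clock and Arntl, and once in each of 2 windows of Tef, and it was not in the windows of Dbp, Per3, Nr1d1 or Arntl. Per2 was not searched. The 250 bases before the start are shown for Per1 (chr11:69098699-69098948, plus strand) and for Ciart (chr3:95882229-95882478, minus strand), 5′ to 3′, with each E-box in capitals.
Per1: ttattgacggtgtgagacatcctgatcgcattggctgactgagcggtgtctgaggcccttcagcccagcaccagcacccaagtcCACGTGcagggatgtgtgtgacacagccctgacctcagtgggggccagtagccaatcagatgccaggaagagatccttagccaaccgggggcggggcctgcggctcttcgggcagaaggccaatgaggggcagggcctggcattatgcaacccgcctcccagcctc
Ciart: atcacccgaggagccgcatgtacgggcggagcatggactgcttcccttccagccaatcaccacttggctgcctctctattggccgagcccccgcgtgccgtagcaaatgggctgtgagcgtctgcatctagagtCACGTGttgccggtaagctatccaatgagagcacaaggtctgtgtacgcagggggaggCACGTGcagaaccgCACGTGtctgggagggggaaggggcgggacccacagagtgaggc
The ROR element, searched on both strands in the spelling shown in capitals below with any base as its last letter but one, occurred in 0.0609% of the windows. Arntl, the gene of the list called lower, held 2 matches in 1 of its windows. They lie 10 bases before and 26 bases after that start, and are shown with 4 bases on each side (chr7:113207497-113207515 and chr7:113207533-113207551, plus strand), the element in capitals.
Arntl site before the start: tcggAAAGTAGGTTAgtgg
Arntl site after the start: gcagAAAGTAGGTCAggga
A match is a description of the letters in these windows and not a measured binding site.

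Dbp encodes a transcription factor of the clock output and lies at chr7:45705088-45710203 (GENCODE M21, GRCm38). It had 168, 201, 139 and 177 CPM in smoke, against 81.1, 72.6, 80.6 and 95.8 CPM in air. It had 84.8, 76.8 and 80.4 CPM in Nic, against 62.2, 85.0, 77.4 and 75.3 CPM in Room-air. Only the smoke libraries stood out, and the Nic and Room-air libraries overlapped. The smoke effect was 1.05 ± 0.12 and the nicotine vapour effect 0.11 ± 0.13, a difference of 0.95 ± 0.18 (edgeR, adjusted p = 0.0308).

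Per1, a repressor of Clock and Arntl at chr11:69095217-69109960, had 143, 135, 131 and 139 CPM in smoke, against 65.4, 91.4, 68.4 and 63.7 CPM in air. It had 136, 152 and 148 CPM in Nic, against 148, 156, 113 and 168 CPM in Room-air. Here the air libraries were the low ones: the smoke libraries lay within the Room-air range, and Nic lay there too. The smoke effect was 0.93 ± 0.13, the nicotine vapour effect −0.01 ± 0.13 and their difference 0.94 ± 0.18 (edgeR, adjusted p = 0.0338).

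Arntl, the activator of the loop (chr7:113207465-113314126), moved the other way. It had 38.1, 39.6, 37.5 and 36.3 CPM in smoke, against 56.5, 61.5, 49.3 and 51.6 CPM in air. It had 52.7, 55.4 and 51.8 CPM in Nic, against 43.8, 44.4, 41.8 and 43.7 CPM in Room-air. Neither pair overlapped: every smoke library was below every air library, and every Nic library was above every Room-air library. The smoke effect was −0.53 ± 0.08 and the nicotine vapour effect 0.30 ± 0.08 (adjusted p = 0.0855, not called). Their difference of −0.83 ± 0.12 had an adjusted p of 0.0245 (edgeR) and passed in 11 of the 15 fits that left out a library, the most passed by any called gene, with values from −0.87 to −0.77.

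The other clock genes called in the smoke arm did not pass for the difference. Ciart had 19.8, 19.6, 19.4 and 30.5 CPM in smoke and 9.38, 11.6, 10.6 and 11.3 CPM in air, against 13.9, 16.6 and 12.7 CPM in Nic and 11, 13.4, 10.4 and 16.1 CPM in Room-air. Its difference was 0.89 ± 0.25 (edgeR, adjusted p = 0.0583). Nr1d1 had 95.6, 131, 90.9 and 116 CPM in smoke and 65.7, 54.9, 75.8 and 73.6 CPM in air, with a difference of 0.66 ± 0.19 (adjusted p = 0.0630). For both genes the smoke and air libraries did not overlap and the Nic and Room-air libraries did. Per2, another repressor of the loop, had a smoke effect of 0.76 and a nicotine vapour effect of 0.30, and Nr1d2 had 0.39 and 0.43, so these 2 genes had positive values in both arms, with differences of 0.46 and −0.04. The mice lived in a 12-hour light cycle, but the time of collection was not given, so a difference in the hour at which groups were collected and a difference in the clock cannot be told apart.

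**Figure D4:**
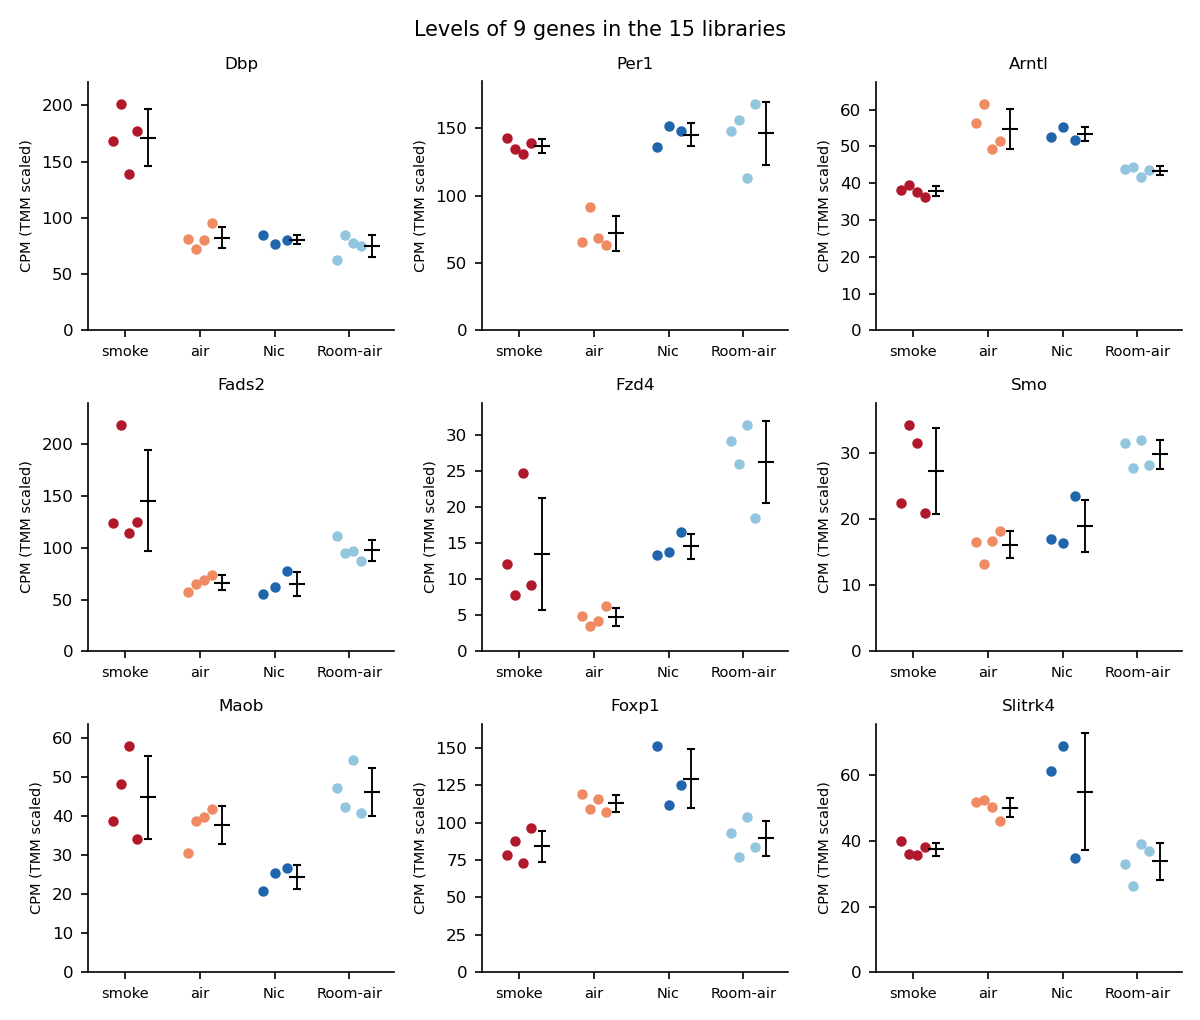
Level of 9 genes (CPM, TMM scaled, from 0) in each smoke, air, Nic and Room-air library, with the mean ± SD beside the points. Dbp was high in smoke only, Per1 low in air only, and Arntl, Fads2, Fzd4, Smo and Foxp1 separated both pairs of groups in opposite directions.

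Some receptor genes of the endothelial Wnt list were called higher. Of 18 genes of that list, Fzd4 and Lrp5 passed (11.1% against 2.17%), and the median difference of the 18 was 0.07. Fzd4, the Norrin receptor that endothelial cells need for barrier formation, lies at chr7:89404355-89413134. It had 12.1, 7.77, 24.8 and 9.19 CPM in smoke, against 4.96, 3.54, 4.17 and 6.34 CPM in air. It had 13.4, 13.8 and 16.6 CPM in Nic, against 29.2, 26.0, 31.4 and 18.5 CPM in Room-air. Every smoke library exceeded every air library and every Nic library was below every Room-air library, and smoke 3 stood above the other smoke libraries. Smoke 3 also had the highest share of choroid plexus and ependymal markers in smoke (2.69%), whereas air 4 had a share of 2.47% with 6.34 CPM of Fzd4. Which cell type the Fzd4 reads came from was not tested. In smoke the effect was 1.52 ± 0.32 and the nicotine vapour effect −0.85 ± 0.30, a difference of 2.37 ± 0.44 (edgeR, adjusted p = 0.0338). It was 1.11 ± 0.66 with the share of reads assigned to no gene as a covariate.

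Lrp5, the co-receptor of Fzd4, had 26.8, 29.7, 38.0 and 28.4 CPM in smoke and 20.6, 13.8, 16.2 and 20.8 CPM in air, against 37.4, 31.7 and 52.4 CPM in Nic and 52.7, 50.2, 54.1 and 40.5 CPM in Room-air. The smoke and air libraries did not overlap, and Nic 3 lay within the Room-air range. Its difference was 1.07 ± 0.24 (edgeR, adjusted p = 0.0392), and 0.24 ± 0.32 with the same covariate. Other genes of the receptor complexes were not called: Tspan12 had a difference of −0.03 and the Wnt7 co-receptor genes Reck and Adgra2 −0.20 and 0.27. The receptor genes Fzd6 and Lrp6 had 0.25 and 0.66 (edgeR, adjusted p = 0.596 and 0.118). The target genes Axin2, Lef1 and Apcdd1 had 0.02, 0.01 and 0.70, with adjusted p of 0.949, 0.994 and 0.342 (edgeR). Over a family of 22 Frizzled, Dishevelled and planar polarity genes, chosen after values were seen, 5 were called higher (Celsr1, Fzd4, Lrp5, Fzd2 and Dvl3), against 0.858% of all genes, and the median was 0.40.

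Transport genes of the barrier had positive effects in both arms, with a median of 0.43 in smoke and 0.28 in nicotine vapour over 24 genes. Slc7a5, the large neutral amino acid transporter, was the member called for the difference (4.17% against 2.17% of all genes). It had 141, 147, 133 and 190 CPM in smoke, against 90.0, 70.3, 74.9 and 86.0 CPM in air. It had 263, 194 and 270 CPM in Nic, against 235, 258, 215 and 199 CPM in Room-air, which overlapped. Its smoke effect was 0.93 ± 0.14, the nicotine vapour effect 0.09 ± 0.14 and the difference 0.83 ± 0.20 (edgeR, adjusted p = 0.0446). In the smoke effect 5 of the 24 were called higher, against 0.821% of all genes. They were Slc7a5, the glucose transporter gene Slc2a1 (0.68 ± 0.15), the lipid transporter gene Mfsd2a (0.70 ± 0.15) and the drug efflux pumps Abcb1a (0.77 ± 0.18) and Abcg2 (0.80). The 20 endothelial markers, which include Slc2a1 and Abcb1a, had medians of 0.57 in smoke and 0.34 in nicotine vapour. With these markers as a covariate the smoke effect was called for 1 gene, against 206 without it. The part of endothelial RNA in the transporter values was not tested further.

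None of the 4 transporters called in smoke other than Slc7a5 differed between the arms at the threshold. Slc2a1 had a difference of 0.64 ± 0.21 (edgeR, adjusted p = 0.0920), Mfsd2a of 0.42 ± 0.21 (0.240), Abcb1a of 0.49 ± 0.27 (0.274) and Abcg2 of 0.45 (0.237). Tfrc, the transferrin receptor, had 187, 165, 170 and 222 CPM in smoke and 211, 153, 163 and 178 CPM in air, against 324, 234 and 185 CPM in Nic and 147, 158, 158 and 152 CPM in Room-air. Every Nic library was above every Room-air library, and the smoke and air libraries overlapped. Its nicotine vapour effect was 0.69 ± 0.16 (adjusted p = 0.0572) and its difference −0.61 ± 0.22 (adjusted p = 0.110). The monocarboxylate transporter gene Slc16a1 had 0.05 in smoke and 0.81 in nicotine vapour, a difference of −0.76 (adjusted p = 0.0958). Aco1, which as iron regulatory protein binds the Tfrc message when iron is low, was called higher, with a smoke effect of 0.26 ± 0.08, a nicotine vapour effect of −0.30 ± 0.09 and a difference of 0.56 ± 0.12 (edgeR, adjusted p = 0.0360).

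The tight and adherens junction genes listed here held no called difference. Of 18 tight and adherens junction genes 0 passed, with a median of 0.29, against 2.17% of all genes, a share at which so short a list may hold none. Ocln had a difference of 0.47 ± 0.28, Cldn5 of −0.22 ± 0.39 and Tjp1 of −0.08 ± 0.18, with edgeR adjusted p of 0.325, 0.773 and 0.834. Cldn5, the main claudin of the barrier, had 313, 388, 335 and 383 CPM in smoke and 396, 299, 205 and 249 CPM in air, against 625, 248 and 654 CPM in Nic and 399, 418, 349 and 250 CPM in Room-air. Both pairs overlapped, and Nic 2 lay below every other Nic library and every Room-air library. The leukocyte adhesion genes Icam1 and Vcam1 had differences of 0.20 ± 0.71 and 0.67 ± 0.40 (adjusted p = 0.891 and 0.335). Nfkbia, which encodes an inhibitor of NF-kB and is itself an NF-kB target, was the member called among 17 NF-kB and cytokine genes (5.88%). It had 64.3, 69.9, 55.8 and 78.2 CPM in smoke and 53, 38.7, 37.4 and 38.9 CPM in air, against 106, 99.2 and 116 CPM in Nic and 115, 109, 112 and 135 CPM in Room-air, a difference of 0.81 ± 0.18 (edgeR, adjusted p = 0.0373).

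No gene of the aryl hydrocarbon receptor list (0 of 9 tested) or of the NRF2 and antioxidant list was called. Of all genes 2.17% were called, a share at which lists this short may hold none. Cyp1a1, the classic aryl hydrocarbon receptor target, was at 0 to 0.0820 CPM in smoke, 0 to 0.102 CPM in air, 0 to 0.0705 CPM in Nic and 0.0375 to 0.158 CPM in Room-air, and did not pass the filter on low counts. Cyp1b1, another target, had a difference of 0.18 ± 0.44 (edgeR, adjusted p = 0.844). Of 30 NRF2 and antioxidant genes 0 were called, and 25 had a positive difference, against 8057 of all 16209 genes. The median of the 30 was 0.31, from 0.05 in smoke and −0.24 in nicotine vapour. Nqo1 had 7.98, 3.96, 15.5 and 5.03 CPM in smoke and 5.95, 6.15, 12.2 and 11.5 CPM in air, which overlapped, against 4.08, 6.19 and 6.43 CPM in Nic and 12.9, 12.8, 16.6 and 12.4 CPM in Room-air, which did not. Its difference was 1.18 ± 0.51 (adjusted p = 0.179). Hmox1 had 0.75 ± 0.32 (0.167) and Cdkn1a, a p53 target, −0.07 ± 0.20 (0.864). Of 12 nicotinic receptor subunit genes 0 were called, with a median of 0.13.

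Lipid and Hedgehog genes were among the higher genes least affected by leaving out a library. Fads2, the delta-6 desaturase of polyunsaturated fatty acid synthesis (chr19:10062765-10101746), had 124, 218, 114 and 125 CPM in smoke, against 56.9, 64.9, 68.6 and 73.9 CPM in air. It had 55.4, 61.6 and 77.9 CPM in Nic, against 111, 94.6, 97.1 and 86.9 CPM in Room-air. Neither pair overlapped, and smoke 2 stood above the other smoke libraries. In smoke the effect was 1.13 ± 0.18 and the nicotine vapour effect −0.58 ± 0.19, a difference of 1.72 ± 0.26 (edgeR, adjusted p = 0.0245). Of 18 lipogenic genes, a family chosen after values were seen, 3 were called higher (Fads2, Srebf1 and Gpam), against 0.858% of all genes, with a median of 0.45. Srebf1, the transcription factor of fatty acid synthesis, had a difference of 0.80 ± 0.16 and Gpam, the first enzyme of glycerolipid synthesis, 1.02 ± 0.21 (adjusted p = 0.0338 each). Of 24 cholesterol synthesis genes 0 were called, against 2.17% of all genes, with a median of 0.29.

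Smo and Ptch1, the signal transducer and the receptor of the Hedgehog pathway, were both called higher. Smo had 22.5, 34.3, 31.6 and 21.0 CPM in smoke and 16.6, 13.3, 16.7 and 18.2 CPM in air, against 17.1, 16.4 and 23.6 CPM in Nic and 31.6, 27.8, 32.0 and 28.2 CPM in Room-air. Ptch1 had 29.5, 42, 24.0 and 26.8 CPM in smoke and 11.1, 12.4, 15 and 15.1 CPM in air, against 17.7, 17.6 and 22.7 CPM in Nic and 31.9, 25.2, 24.7 and 16.6 CPM in Room-air. Smo separated both pairs, whereas the Nic and Room-air libraries of Ptch1 overlapped. The differences were 1.40 ± 0.23 and 1.53 ± 0.29 (edgeR, adjusted p = 0.0245 and 0.0310). The rest of the pathway was not called: of 15 members, chosen as a family after values were seen, 2 were called higher, against 0.858% of all genes, the median was 0.00, and the target gene Gli1 had 0.43 ± 0.26 (adjusted p = 0.318). Nwd1, also called higher, had 137, 237, 151 and 140 CPM in smoke and 82.5, 86.7, 105 and 102 CPM in air, against 60.4, 83.0 and 80.8 CPM in Nic and 128, 119, 133 and 99.9 CPM in Room-air, a difference of 1.5 ± 0.24 (adjusted p = 0.0245).

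Some mitochondrial enzymes that burn fatty acids and amino acids were called higher, and the medians of their families lay further from 0 in nicotine vapour than in smoke. Of 27 fatty acid oxidation genes 5 were called higher (Acss1, Hadha, Acaa2, Acads and Acadm), or 18.5% against 0.858% of all genes. A positive difference held for 26 of the 27, against 8057 of all 16209 genes. Over the 27 the median smoke effect was 0.14, the median nicotine vapour effect −0.35 and the median difference 0.54. Of 18 propionate, glycine and one-carbon enzymes 8 were called higher (Maob, Idh2, Gldc, Aldh2, Sardh, Pcca, Pcx and Oplah), with medians of 0.26 in smoke, −0.46 in nicotine vapour and 0.74 for the difference. Both families were chosen after their values were seen, so their shares are a description. Not every called member followed the medians: Sardh had 0.72 in smoke and −0.40 in nicotine vapour, and Acadm 0.33 and −0.26. With the share of reads assigned to no gene as a covariate the difference was 0.21 for Aldh2 (1.17 without it), 0.26 for Hadha (0.74) and 0.53 for Acaa2 (1.56), against 0.84 for Acss1 (0.95) and 0.73 for Idh2 (0.80).

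Maob, the monoamine oxidase of astrocytes (chrX:16709282-16817366), had 38.6, 48.2, 57.8 and 34.2 CPM in smoke, against 30.6, 38.7, 39.8 and 41.7 CPM in air. It had 20.8, 25.4 and 26.6 CPM in Nic, against 47.2, 42.3, 54.3 and 40.7 CPM in Room-air. The smoke and air libraries overlapped, and the Nic libraries were all below Room-air. For Maob the smoke effect was 0.25 ± 0.15, the nicotine vapour effect −0.93 ± 0.16 (adjusted p = 0.0535, not called) and the difference 1.17 ± 0.22 (edgeR, adjusted p = 0.0310). Acaa2, the thiolase of the last step of beta-oxidation, had a smoke effect of 0.27 ± 0.23 and a nicotine vapour effect of −1.29 ± 0.25, a difference of 1.56 ± 0.34 (adjusted p = 0.0370). Acss1, which activates acetate in mitochondria, had 55.5, 75.9, 63.0 and 51.3 CPM in smoke and 40.3, 50.7, 48.0 and 44.9 CPM in air, against 32.8, 36.8 and 36.6 CPM in Nic and 50.6, 50.4, 54.7 and 49.2 CPM in Room-air. It separated both pairs, with a difference of 0.95 ± 0.16 (adjusted p = 0.0282). Gldc, the glycine cleavage enzyme of astrocytes, had 1.05 ± 0.23 and Aldh2, the mitochondrial aldehyde dehydrogenase, 1.17 ± 0.26 (adjusted p = 0.0360 each). Astrocyte markers as a list were 0.451 to 0.869% of counts in smoke and 0.471 to 0.584% in air, against 0.457 to 0.460% in Nic and 0.411 to 0.497% in Room-air, with 0 of 13 called and a median of 0.33. Choroid plexus and ependymal markers overlapped between smoke and air but made up 0.212 to 0.716% in Nic against 1.77 to 2.5% in Room-air. With the choroid plexus and ependymal markers as a covariate 0 genes were called. The part of either cell type in these enzyme genes was not tested beyond that fit.

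No gene of the respiratory chain was called. Of 37 complex I, 24 complex II to IV and 16 ATP synthase subunits 0 were called, against 2.17% of all genes. At that share lists of these sizes hold few calls or none. The median differences were 0.20, 0.27 and 0.30. Those medians came from negative medians in both arms, −0.25, −0.19 and −0.19 in smoke and −0.40, −0.42 and −0.48 in nicotine vapour. The 17 glycolysis enzymes had a median of −0.03 in smoke and −0.46 in nicotine vapour, a difference of 0.40, with 0 called.

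Some genes of energy stress and lysosomes were also called higher, in families chosen after values were seen. Of 19 FoxO and energy-stress genes 7 were called higher (Klf15, Ddit4, Castor1, Irs2, Pnpla2, Adipor2 and Txnip), against 0.858% of all genes, with a median of 0.32. Ddit4, a stress-induced inhibitor of mTORC1, had 34.2, 47.8, 32.1 and 45.9 CPM in smoke and 25.8, 31.3, 29.0 and 22.7 CPM in air, against 38.4, 52.3 and 64.0 CPM in Nic and 79.0, 96.8, 64.5 and 93.4 CPM in Room-air. Neither pair overlapped, and its difference was 1.25 ± 0.26 (edgeR, adjusted p = 0.0338). Klf15, a glucocorticoid- and fasting-induced transcription factor, had a smoke effect of 0.44 ± 0.12 and a nicotine vapour effect of −0.46 ± 0.12, a difference of 0.90 ± 0.17 (adjusted p = 0.0310). Of 26 lysosomal glycosidases and sulfatases 4 were called higher (Man2b2, Fuca1, Man2b1 and Sgsh), against the same 0.858%, and 24 had a positive difference, against 8057 of all 16209 genes, with a median of 0.31. With the share of reads assigned to no gene as a covariate the difference of Fuca1 was 0.28 (0.88 without it) and that of Sgsh 0.20 (0.77). Atp6v0a2, a subunit of the proton pump of acidic compartments, had 54.8, 65.0, 55.4 and 49.9 CPM in smoke and 37.6, 36.3, 39.7 and 40.3 CPM in air, against 43.7, 47.8 and 46.0 CPM in Nic and 55.5, 60.7, 58.0 and 51.9 CPM in Room-air. It separated both pairs, with a difference of 0.85 ± 0.13 (adjusted p = 0.0245).

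Of 19 glucocorticoid-induced genes Per1 was the member called (5.26% against 2.17% of all genes). The list had the widest median difference after the choroid plexus markers, 0.64, from 0.13 in smoke and −0.46 in nicotine vapour. Of these 19 genes 15 had a positive difference, against 8057 of all 16209 genes. Tsc22d3, Sgk1, Fkbp5 and Pdk4, common reporters of glucocorticoid action, had differences of 0.67, 1.03, 0.67 and 0.82, with edgeR adjusted p of 0.0697, 0.162, 0.147 and 0.0573. Other members lay near 0 or below it: Zbtb16 had 0.10, Dusp1 0.01, Cdkn1a −0.07, Errfi1 −0.09, Klf9 −0.22 and the receptor gene Nr3c1 −0.30.

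Receptor, channel and adhesion genes of neurons were among the genes called lower. Of 18 ionotropic glutamate receptor subunits 2 were called lower (Grin2b and Gria4), or 11.1% against 1.31% of all genes. Of 12 sodium channel subunits 2 were called lower (Scn1a and Scn3a), and of 80 potassium channel subunits 9. The medians of these families were −0.38, −0.34 and −0.09. Of 18 synaptic adhesion proteins with leucine-rich repeats 8 were called lower, with a median of −0.50. All of these families were chosen after values were seen. In each of the 21 called members of these 4 families Nic 1 and Nic 2 were above every Room-air library, whereas Nic 3 was within or below the Room-air range in 14 of them. These members were called by a test on the same libraries, and a lower call favours high Nic values, so the count is a description. Over all 16209 genes tested the Nic and Room-air libraries did not overlap, in either direction, in 17.2%. That share was not counted for Nic 1 and Nic 2 alone.

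Slitrk4, an adhesion protein of synapses, had 39.8, 36.0, 35.6 and 38.2 CPM in smoke, against 51.7, 52.2, 50.2 and 46.1 CPM in air. It had 61.3, 68.7 and 34.7 CPM in Nic, against 32.8, 26.3, 39.0 and 36.9 CPM in Room-air. The smoke and air libraries did not overlap. Nic 1 and Nic 2 were above the Room-air libraries and Nic 3 was within their range. The smoke effect was −0.42 ± 0.17 (adjusted p = 0.183), the nicotine vapour effect 0.70 ± 0.17 (adjusted p = 0.0633) and the difference −1.12 ± 0.24 (edgeR, adjusted p = 0.0360). It was −1.37 without Nic 3 and −0.15 ± 0.32 with the share of reads assigned to no gene as a covariate. Nic 3 was also the Nic library whose share of reads assigned to no gene lay within the Room-air range.

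No gene of the neuron marker list was called, and lists were not tested as sets. Of 20 neuron markers 0 were called for the difference, against 2.17% of all genes, with a median of −0.16 from −0.32 in smoke and −0.09 in nicotine vapour. Of 14 striatal neuron markers 0 were called, with a median of −0.28. With the neuron markers as a covariate 1120 genes were called, 348 of the 351 among them.

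The lower genes least affected by leaving out a library included a scaffold of synapses and a transcription factor. Homer1, a scaffold of glutamate receptors, had 86.0, 67.7, 77.7 and 71.0 CPM in smoke and 125, 91.3, 114 and 101 CPM in air, against 136, 138 and 109 CPM in Nic and 101, 85.2, 93.5 and 99.8 CPM in Room-air. Neither pair overlapped, and the difference was −0.94 ± 0.17 (edgeR, adjusted p = 0.0294). Foxp1, a forkhead transcription factor, had 78.5, 88.0, 73.2 and 96.5 CPM in smoke and 119, 109, 116 and 107 CPM in air, against 151, 112 and 125 CPM in Nic and 93.3, 77.2, 104 and 83.9 CPM in Room-air. It also separated both pairs, with a difference of −0.96 ± 0.17 (adjusted p = 0.0294). Dpysl2, a regulator of axonal microtubules, was lower in smoke than in air (effect −0.81 ± 0.13, edgeR adjusted p = 0.00918). Its mean was 212 CPM in smoke, 372 in air, 210 in Nic and 187 in Room-air, so the air libraries were the high ones. The nicotine vapour effect of Dpysl2 was 0.17 ± 0.14 and its difference −0.98 ± 0.19 (adjusted p = 0.0315). Ugt8a, the enzyme of galactosylceramide synthesis in myelin, was the oligodendrocyte marker called lower, 1 of 11, with 51.9, 44.9, 47.6 and 52.5 CPM in smoke and 70.6, 73.4, 81.3 and 58.8 CPM in air, against 54.4, 55.2 and 59.1 CPM in Nic and 53.7, 45.6, 49.9 and 49.7 CPM in Room-air. Its difference was −0.70 ± 0.14 (adjusted p = 0.0338), and the median of the 11 markers was −0.22.

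RNA-binding proteins of the Elavl, Celf, Mbnl and Rbfox families, which control splicing and message stability, were called lower in 7 of 15 tested (Rbfox1, Mbnl1, Elavl4, Mbnl2, Elavl2, Celf2 and Elavl1), against 1.31% of all genes. This family was chosen after values were seen, and its median was −0.52, −0.31 in smoke and 0.21 in nicotine vapour. With the share of reads assigned to no gene as a covariate the difference was −0.21 for Celf2 (−0.84 without it), −0.32 for Mbnl1 (−0.79) and −0.35 for Mbnl2 (−0.81), against −0.65 for Rbfox1 (−0.81). Rbfox1 had 117, 127, 110 and 133 CPM in smoke and 182, 184, 220 and 155 CPM in air, against 158, 163 and 135 CPM in Nic and 134, 128, 145 and 121 CPM in Room-air. It was lower in smoke than in air (effect −0.61 ± 0.11, adjusted p = 0.0176) and overlapped between Nic and Room-air. Its difference was −0.81 ± 0.16 (edgeR, adjusted p = 0.0338). Mbnl1, which is expressed widely outside neurons, had a smoke effect of −0.24 ± 0.11 and a nicotine vapour effect of 0.55 ± 0.12, a difference of −0.79 ± 0.16 (adjusted p = 0.0338). Pdcd10 and Krit1, whose loss causes cerebral cavernous malformations, were called lower as well, 2 of 3 genes of a family chosen after values were seen, with −0.71 ± 0.17 and −0.68 ± 0.17 (adjusted p = 0.0450 and 0.0489), whereas Ccm2 was not called (0.17 ± 0.22). With the same covariate Pdcd10 had −0.26 and Krit1 −0.19.

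The remaining genes that were least affected by leaving out a library held other functions. On the higher side they were Plxnb1, a receptor for semaphorins (0.89), Celsr1, a planar polarity cadherin (1.25), Retsat, a retinol saturase (1.15), and Sft2d2, Cyb5d1 and Man2b2 (0.92, 1.54 and 0.95). Plxnb1 had 252, 347, 242 and 257 CPM in smoke and 159, 176, 189 and 193 CPM in air, against 152, 148 and 167 CPM in Nic and 186, 194, 182 and 191 CPM in Room-air. Neither pair overlapped, and smoke 2 stood above the other smoke libraries. On the lower side they were Ephx4, an epoxide hydrolase family member (−0.80), Ipcef1 (−1.14), Neto2, an auxiliary subunit of kainate receptors (−1.02), Trim59 (−0.99), Acvr1c, an activin receptor (−0.93), Kcnj2, an inward rectifier potassium channel (−0.88), Akap5, a synaptic anchor of kinase A (−0.87), Nwd2 (−0.82), Pdp1, the phosphatase that activates pyruvate dehydrogenase (−0.78), Purg (−0.76) and Schip1 (−0.70). Ephx4 had 30.9, 31.6, 29.2 and 30.4 CPM in smoke and 42.9, 39.7, 50.7 and 42 CPM in air, against 33.1, 36.6 and 33.2 CPM in Nic and 25.4, 29.0, 28.6 and 30.1 CPM in Room-air. Neither pair overlapped, and like Arntl it passed in 11 of the 15 fits. Ipcef1 had 32.2, 40.8, 28.2 and 39.3 CPM in smoke and 64.5, 60.4, 85.9 and 54.5 CPM in air, against 39.8, 46.5 and 39.7 CPM in Nic and 34.4, 35.6, 38.5 and 36.1 CPM in Room-air. Here the air libraries were the high ones, above every library of the other groups. The smoke effect was −0.92 ± 0.14 (edgeR adjusted p = 0.00627) and the nicotine vapour effect 0.22 ± 0.14.

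**Figure D5:**
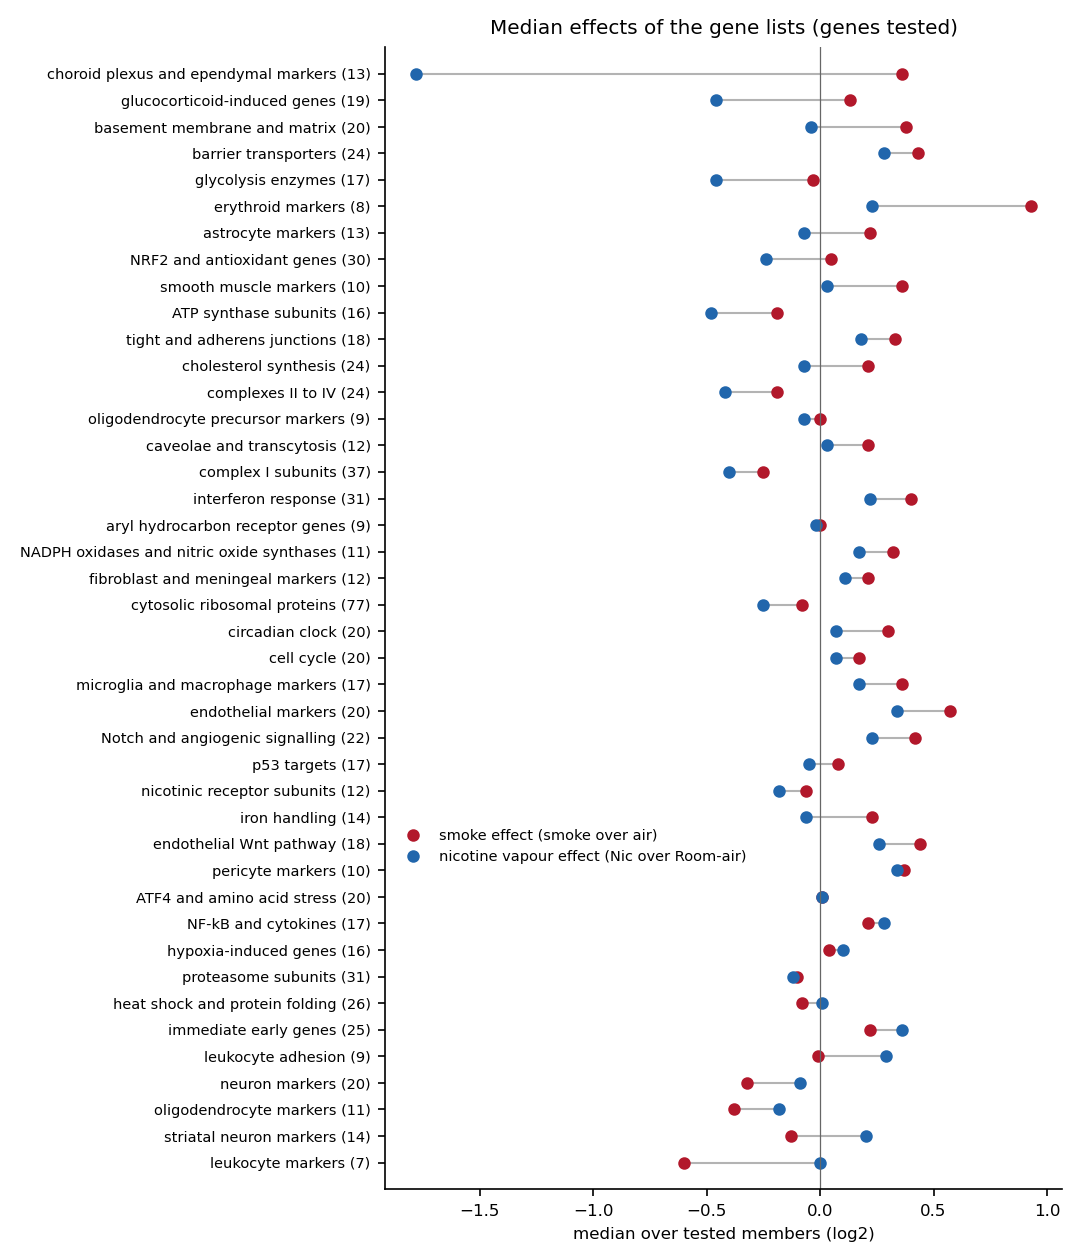
Median smoke effect (smoke over air) and median nicotine vapour effect (Nic over Room-air), in log2, over the tested members of 42 gene lists, ordered by the median difference with the number of genes tested in brackets. The choroid plexus and ependymal markers (0.36 in smoke and −1.78 in nicotine vapour) and the glucocorticoid-induced genes (0.13 and −0.46) are at the top, and the leukocyte markers (−0.60 and −0.00) at the bottom.

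Over the 42 lists, 10 of 770 distinct genes tested were called, or 1.30%, against 2.17% of all genes, and the calls fell in 8 lists. The widest gap of medians was in the 13 choroid plexus and ependymal markers, 0.36 in smoke and −1.78 in nicotine vapour, with 0 called. Ttr, the transthyretin of choroid plexus, had a difference of 1.90 ± 1.12 and Kl 2.80 ± 1.27 (edgeR, adjusted p = 0.330 and 0.208). Basement membrane and matrix genes had a median difference of 0.44 and interferon response genes 0.19, with 0 called of 20 and of 31. Immediate early genes had a median of −0.07, from 0.22 in smoke and 0.36 in nicotine vapour, heat shock genes −0.04 and hypoxia-induced genes −0.00, again with 0 called.

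Gh, the growth hormone gene, was the called gene with the widest ratio of levels. It had 71, 40, 41 and 58 counts in smoke, against 2, 0, 1 and 0 in air, 0, 0 and 0 in Nic and 0, 0, 5 and 10 in Room-air. As CPM these were 6.83, 5.65, 3.28 and 4.63 in smoke, against 0.153, 0, 0.0787 and 0 in air. Every smoke library was above every air, Nic and Room-air library. Its smoke effect was called (edgeR, adjusted p = 0.00583), as was the difference (adjusted p = 0.0308), but with all Nic libraries at 0 no size is given. The difference was not called in the fit of all 19 libraries (adjusted p = 0.0551). Of other pituitary hormone genes, Prl had 4, 2, 3 and 2 counts in smoke, 0 in all air and Nic libraries and 0, 0, 1 and 0 in Room-air. Pomc, which is also made in hypothalamic neurons, had 58, 57, 60 and 68 counts in smoke, 44, 22, 41 and 25 in air, 79, 44 and 88 in Nic and 185, 78, 49 and 64 in Room-air.

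The difference of effects equals smoke minus Nic less air minus Room-air, so it also depends on how far the control groups lie apart. Of 16209 genes tested, the controls differed for 3160 and smoke from Nic for 3286 (edgeR, adjusted p under 0.05). Among the 351 called genes, 171 were called between air and Room-air and 218 between smoke and Nic. In 329 of the 351 the control difference had the opposite sign to the difference of effects. The control difference enters the difference of effects with a minus sign, so a test of it favours opposite signs. These counts are a description, and the share with opposite signs over all genes was not counted. Per1 shows a case of opposite signs, with air minus Room-air at −1.02 and smoke minus Nic at −0.08. Dbp shows a case of equal signs, with 0.14 between the controls and 1.09 between smoke and Nic. Fzd4 had −2.46 between the controls and −0.10 between smoke and Nic. Whether the control groups differ by handling, date or sequencing run cannot be told apart from their other differences.

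Several named genes overlap an annotated gene on the opposite strand, and whether reads were counted by strand is not given in the sources used here, so their reads and those of the partner cannot be told apart. These include Dbp with Sphk2, Slc7a5 with Gm20388, Srebf1 with Rai1, Acss1 with E130215H24Rik, Hadha with Garem2, Pcca with Ggact, Pcx with Lrfn4, Sardh with Sardhos, Ephx4 with Gm17202, Ipcef1 with Oprm1 and Sgsh with Card14.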

How the data were processed

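Cerebral microvessel RNA was sequenced as strand-specific single-end libraries of 80 nt reads after poly(A) selection, per the labels' protocols. Reads were aligned to mm10 with STAR and counted per gene with HTSeq, per the submitters' processing notes. The versions, the gene annotation and the strand setting are not given in the sources used here. The deposited files hold raw counts per gene for 39179 genes plus 5 summary lines, which were kept out of library sizes and tests and whose reads assigned to no gene are 28.7 to 38.4% of the reads counted. Names and coordinates came from GENCODE M21 (GRCm38), which named 37607 genes.

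The 4 groups, 15 libraries in all, were fitted together with edgeR 4.0.16 in R 4.3.3 (TMM scaling, filterByExpr, robust quasi-likelihood fit), and each contrast was tested with the quasi-likelihood F test and Benjamini-Hochberg adjustment over all 16209 genes at a threshold of 0.05. Totals ran from 7939180 to 30185056 counts per library and were lower for smoke and air. The standard errors of the 2 effects were nevertheless close, at 0.12 in smoke and 0.13 in nicotine vapour for Dbp, and 0.32 and 0.30 for Fzd4. Standard errors are the log2 difference divided by the square root of F. Alternatives were other scalings, DESeq2 1.42.0, limma-voom 3.58.1, other filters, all 19 libraries, thinned libraries, marker covariates, a replicate block and each library left out. The interaction and edgeR steps were tested on simulated data. The first rule for named genes asked for a call in every fit that left out a library, and no gene met it. The genes named are therefore called members of the gene lists, a list of barrier and exposure genes, and the 15 called genes in each direction with the smallest largest p over those fits, chosen after their values were seen. The comparison, its gene lists and its families were chosen with earlier results of these data known. Libraries of 1 group differed by more than sampling noise in every pair.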

Additional observations from a re-analysis of the deposited data

Results flagged for a closer look

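The difference between the smoke effect and the nicotine vapour effect passed the edgeR test for 351 genes. It compares 2 exposures each against its own controls, so it also holds the difference between the control groups. The count was 0 without air 1, Nic 1, Nic 2 or Room-air 2. It was also 0 with the replicate block and with the covariates for choroid plexus markers and for reads assigned to no gene. Of 360 groups of 4 libraries examined for a single outlying library, 21 had one, and chance gives about 1 in 20.

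Smoke 2 stood apart for Fads2 (218 CPM, the others 114 to 125), Nwd1 (237 CPM, 137 to 151), Plxnb1 (347 CPM, 242 to 257), Sardh (35.3 CPM, 18.6 to 20.2), Pcx (151 CPM, 108 to 112) and Pdcd10 (17.8 CPM, 22.5 to 22.9). Smoke 3 did so for Mfsd2a (46.7 CPM, 64.8 to 68.5), Cyp1a1 (0.0820 CPM, the others at 0), Akap5 (24.0 CPM, 30.2 to 31.2), Pcca (59.3 CPM, 38.6 to 40.8) and Castor1 (7.83 CPM, 10.6 to 10.8), and smoke 4 for Abcb1a (207 CPM, 162 to 166).

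Among the controls, air 1 stood apart for Nfkbia (53 CPM, 37.4 to 38.9) and air 3 for Nwd2 (42.4 CPM, 35.6 to 36.5). Room-air 3 did so for Icam1 (24.2 CPM, 10.9 to 12.9), Nqo1 (16.6 CPM, 12.4 to 12.9), Schip1 (68.1 CPM, 75.8 to 76.6), Pdcd10 (23.7 CPM, 21.2 to 21.6) and the summed leukocyte markers (0.00509% of counts, 0.00375 to 0.00386%). Room-air 2 did so for Lrrtm2 (39.1 CPM, 44.6 to 45.7), and Room-air 1 for Sardh (16.6 CPM, 14.6 to 14.8).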

How the results depend on the processing

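The count of genes with a called difference was 351, 400, 352, 381 and 334 with RLE size factors, upper-quartile scaling, no filter, a stricter filter and thinned libraries. It was 1362 with DESeq2 (679 higher, 683 lower), 180 with limma-voom, 925 with all 19 libraries (461 and 464), 1120 with the neuron covariate, 127 with the endothelial covariate (66 and 61), 0 with the choroid plexus covariate, 0 with the added covariate for reads assigned to no gene, and 0 with the replicate block. Leaving out a library gave 0 to 1930. The smoke effect count was 829 with DESeq2, 128 with limma-voom, 519 with all 19 libraries, 17 with the replicate block, 331, 1 and 4 with the choroid plexus, endothelial and no-gene covariates, and 20 (without air 3) to 403 (without Nic 3) with a library left out. The nicotine vapour effect count was 2 with RLE, 57 with upper-quartile scaling, 869 with DESeq2, 318 with limma-voom, 136 with no filter, 348 with all 19 libraries, 186 with the neuron covariate, and 0 to 1489 (without Nic 3) with a library left out. The causes were not tested. In the replicate block fit the lowest adjusted p was 0.0901 and 3186 genes had an unadjusted p under 0.05. Same-numbered libraries had correlations of their deviations from −0.329 to 0.197 for smoke and air and −0.124 to 0.165 for Nic and Room-air. So few pairs cannot show whether same-numbered libraries were handled or collected together. No called gene that is named changed direction under any alternative. Among genes not called, the direction reversed for Ocln (−0.08) and Vcam1 (−0.06), Nqo1 (−0.05) and Icam1 (−0.92) with the no-gene covariate, for Cldn5 (0.07 with the replicate block, 0.12 with the choroid plexus covariate, 0.00 without Nic 3), for Tjp1 (0.01, 0.07, and 0.03 without Room-air 4), for Icam1 (−0.14 without Room-air 3, −0.17 without Nic 2, −0.11 without smoke 1), for Cdkn1a (0.04 with the choroid plexus covariate, 0.09 without air 1) and for Cyp1b1 (−0.09 and −0.08 with the neuron and endothelial covariates, −0.12 without Room-air 3, −0.11 without smoke 4). Leaving out a library gave −0.55 to 0.00 for Cldn5, −0.19 to 0.03 for Tjp1, −0.17 to 0.99 for Icam1, −0.20 to 0.09 for Cdkn1a and −0.12 to 0.34 for Cyp1b1. Smoke and air held fewer counts than Nic and Room-air, which adds sampling noise for genes of low level.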

Other observations

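The series also holds 4 libraries of Nic-free vapour, which were not part of the comparison above and share the smoke, air and Room-air libraries with it, so the 2 differences are not independent. In a fit of all 19 libraries the smoke effect minus the Nic-free effect was called for 3558 of 16557 genes (1856 higher, 1702 lower), and the smoke effect minus the nicotine vapour effect for 925. The share of reads assigned to no gene was 38.9 to 45.2% in the Nic-free libraries. Per1 had 1.36 for the smoke effect minus the Nic-free effect and 0.96 for the smoke effect minus the nicotine vapour effect, and Fzd4 had 3.67 and 2.40. Dbp had 0.23 and 0.97, and Arntl −0.20 and −0.80, with adjusted p of 0.316 and 0.194 for the differences from the Nic-free effect (edgeR). Dbp had 132, 128, 152 and 123 CPM in the Nic-free libraries and Arntl 36.2, 34.7, 32.0 and 35.8 CPM. Gh had 0.268, 0.233, 0.525 and 4.93 CPM in the Nic-free libraries, so Nic-free 4 lay above 2 of the 4 smoke libraries. Its smoke effect minus the Nic-free effect had an adjusted p of 0.375 (edgeR).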
